A study of Mus musculus with 7 samples.

Results

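Creatine and its phosphorylated form carry high-energy phosphate inside muscle fibres, and the 7 genes described here make creatine, bring it into the cell and load or unload it. They are Gatm and Gamt, the 2 synthesis enzymes, Slc6a8, the creatine transporter, and the 4 creatine kinases Ckm, Ckb, Ckmt1 and Ckmt2. They were chosen by name, with earlier results of these data known, and are 7 of the 19938 genes tested. Each was read by the only probe set that carries its symbol. Each array holds RNA from the extensor digitorum longus of 1 mouse, a lower leg muscle built mainly of fast fibres. There were 3 mice labelled AMPKα1α2 double knockout (KO), named for the 2 catalytic subunits of AMP-activated protein kinase, an enzyme that responds to a low cellular energy state, and 4 wild type controls (WT). KO and WT mice alike had the strain label C57/Bl6 and SV129 mixed background. The labels give no age, sex, exercise or treatment, and do not say whether the deletion was limited to muscle. All values are log2 expression as the authors deposited it, with the log base inferred from the range of the values.

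Creatine is made in 2 steps. GATM moves the amidino group of arginine onto glycine, which leaves ornithine and guanidinoacetate, and GAMT methylates guanidinoacetate with S-adenosylmethionine as the donor. In mammals most of this synthesis takes place in kidney and liver, and muscle fibres take up circulating creatine through the sodium- and chloride-dependent carrier SLC6A8. In the mitochondrion, creatine kinase uses ATP leaving the matrix to phosphorylate creatine, and cytosolic creatine kinase bound near myosin and the calcium pumps turns phosphocreatine back into ATP.

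In KO muscle both synthesis genes lay above WT on every array, the sarcomeric mitochondrial kinase Ckmt2 lay below WT on every array, and the carrier and the other 3 kinases differed little. Gamt was 1.77-fold higher, Gatm 1.43-fold higher and Ckmt2 1.41-fold lower in KO, while for Slc6a8, Ckm, Ckb and Ckmt1 the size of the difference was at most 0.04 log2 units. In limma, with p adjusted by Benjamini-Hochberg across every probe set tested, 0 of the 7 genes passed an adjusted p of 0.05, a threshold that 0.0251% of all genes passed (0.0201% higher and 0.00502% lower in KO). At an unadjusted p under 0.05 there were 3 of the 7, against 10.6% of all genes, with 2 higher (3.93% of all genes) and 1 lower (6.69% of all genes). The 3 KO arrays did not overlap the 4 WT arrays for the same 3 genes, against 8.61% of all genes. The median difference over the 7 was -0.01, and over all genes it was -0.0049.

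**Figure D1:**
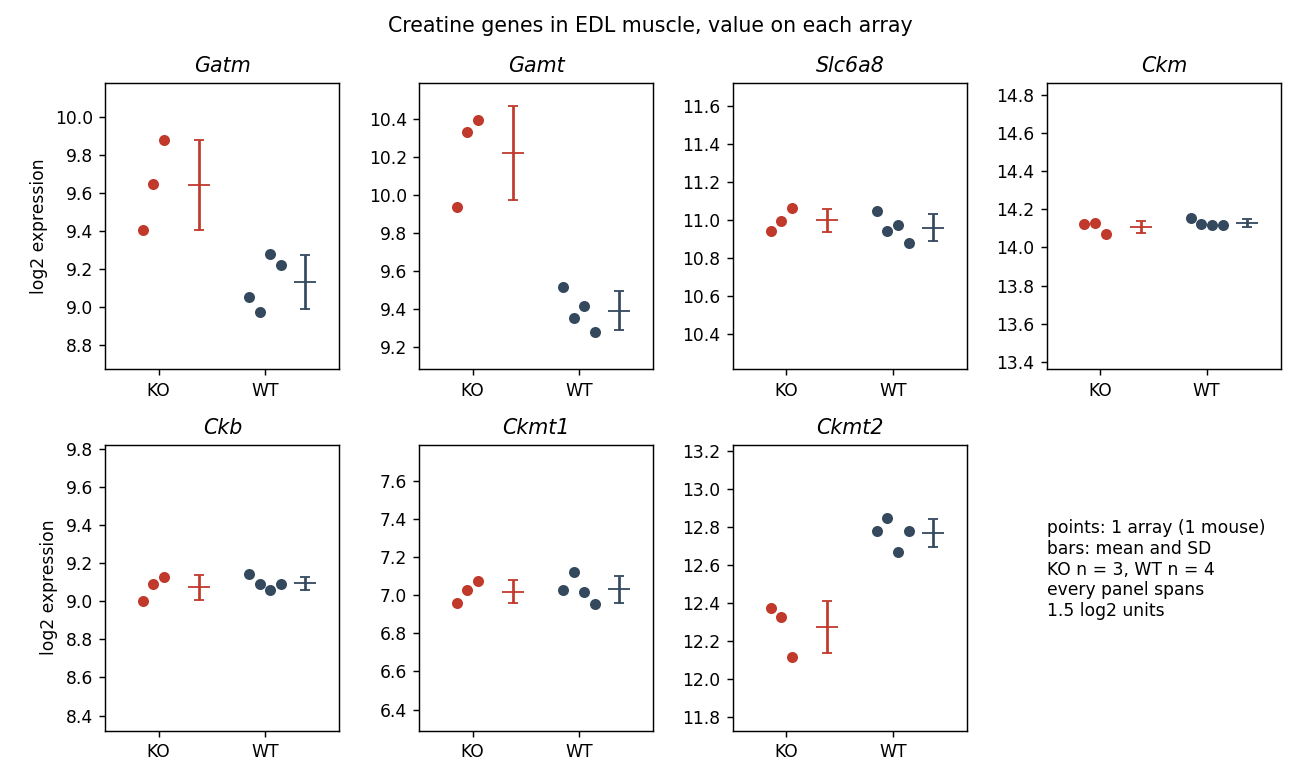
Log2 expression of the 7 creatine genes on each array, with KO at the left and WT at the right of each panel, where a point is 1 array of 1 mouse and the bars are the mean and SD (n = 3 KO, n = 4 WT). All KO points of Gatm and Gamt lie above the WT points and all KO points of Ckmt2 lie below them, while the points of the other 4 genes overlap.

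The starts of the 3 genes that did not overlap, and of Ckm as the muscle kinase that did, are shown as a description. Each sequence is the RefSeq window of assembly GRCm38.p6 from 250 bases before to 50 after an annotated start, printed 5′ to 3′ on the strand of the gene. Capitals mark matches on either strand to the TATA box TATAAA, the CCAAT box CCAAT, the GC box GGGCGG, the E-box CAGCTG and the nuclear receptor motif AAGGTCA, and no match overlaps another.
Gatm (chr2:122611228-122611527, minus strand): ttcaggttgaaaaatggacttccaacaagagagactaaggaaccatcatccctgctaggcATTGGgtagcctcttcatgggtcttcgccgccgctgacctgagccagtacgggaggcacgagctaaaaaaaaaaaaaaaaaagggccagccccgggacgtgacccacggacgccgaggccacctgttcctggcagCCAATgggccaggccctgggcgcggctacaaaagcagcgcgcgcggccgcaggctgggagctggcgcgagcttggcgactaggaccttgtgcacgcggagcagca
Gamt (chr10:80260963-80261262, minus strand): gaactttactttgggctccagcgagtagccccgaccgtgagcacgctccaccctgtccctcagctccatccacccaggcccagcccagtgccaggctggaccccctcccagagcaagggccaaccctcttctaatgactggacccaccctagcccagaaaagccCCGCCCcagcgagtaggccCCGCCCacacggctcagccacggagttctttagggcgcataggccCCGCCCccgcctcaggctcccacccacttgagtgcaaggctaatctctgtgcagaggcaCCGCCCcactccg
Ckmt2 (chr13:91876836-91877135, minus strand): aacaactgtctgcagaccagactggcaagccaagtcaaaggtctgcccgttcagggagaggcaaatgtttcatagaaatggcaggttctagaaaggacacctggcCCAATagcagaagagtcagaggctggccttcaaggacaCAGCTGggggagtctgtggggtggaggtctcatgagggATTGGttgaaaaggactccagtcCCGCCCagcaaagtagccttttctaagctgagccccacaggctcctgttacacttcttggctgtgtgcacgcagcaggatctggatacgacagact
Ckm (chr7:19410844-19411143, plus strand): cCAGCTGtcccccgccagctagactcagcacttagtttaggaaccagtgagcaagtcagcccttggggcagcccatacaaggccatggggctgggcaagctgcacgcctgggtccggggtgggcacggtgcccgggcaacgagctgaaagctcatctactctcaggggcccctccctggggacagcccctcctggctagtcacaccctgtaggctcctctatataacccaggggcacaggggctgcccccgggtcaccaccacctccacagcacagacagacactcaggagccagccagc

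The windows of the 2 synthesis genes shared none of the 5 motifs. Gatm held 2 CCAAT boxes, the nearer one 55 bases before the start, and Gamt held 4 GC boxes. Ckmt2 held 2 CCAAT boxes, 1 GC box and 1 E-box of the kind that myogenic factors bind, and Ckm held 1 E-box. Among windows not printed, that of Ckb, which differed little, held 2 CCAAT boxes and 1 TATA box. Those of Ckmt1 held a TATA box, an E-box, a nuclear receptor motif and a CCAAT box between them. Of all 32851 RefSeq windows of this length, 37.4% held the CCAAT box, 35.7% the GC box, 16.3% the E-box, 13.6% the TATA box and 4.72% the nuclear receptor motif. A match is a run of letters and not a measured binding site, and its relation to the expression differences was not tested.

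Gamt, which completes creatine synthesis (probe set 10370766, chromosome 10), had the largest difference of the 7. It read 9.94, 10.33 and 10.39 in KO muscles, against 9.52, 9.36, 9.42 and 9.28 in WT muscles. The lowest KO array stood 0.42 above the highest WT array. Gamt averaged 10.22 ± 0.25 in KO (SD, n = 3) and 9.39 ± 0.10 in WT (SD, n = 4), a log2 difference of 0.83 ± 0.12 (SE), with a 95% interval from 0.55 to 1.10. It ranked 40 of 19938 genes by p in limma, with an adjusted p of 0.095. Among the 15 alternatives it passed only when KO replicate 1 was left out, with a difference of 0.97 and an adjusted p of 0.044.

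Gatm, which catalyses the step that commits arginine and glycine to creatine (probe set 10487011, chromosome 2), read 9.40, 9.65 and 9.88 in KO muscles. In WT muscles it read 9.05, 8.98, 9.28 and 9.22. The groups were separated by 0.13 between the lowest KO and the highest WT array, a narrower gap than for Gamt. Gatm averaged 9.64 ± 0.24 in KO (SD, n = 3) and 9.13 ± 0.14 in WT (SD, n = 4). The log2 difference was 0.51 ± 0.12 (SE), with a 95% interval from 0.22 to 0.80 and a limma adjusted p of 0.23. Within each array, the log2 ratio of the Gamt to the Gatm probe set was 0.53, 0.68 and 0.52 in KO, against 0.47, 0.38, 0.14 and 0.06 in WT. The ratio was higher on each KO array than on any WT array, by 0.31 on average, and this was not tested. A value within an array shows only that the 2 differences were unequal.

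Slc6a8, the carrier through which fibres acquire creatine (probe set 10600210, chromosome X), did not separate the genotypes. It read 10.94, 10.99 and 11.06 in KO muscles, against 11.05, 10.94, 10.97 and 10.88 in WT muscles. The log2 difference was 0.04 ± 0.05 (SE), with a 95% interval from -0.08 to 0.16 and a limma adjusted p of 0.83. A difference as large as that of either synthesis gene lies outside this interval.

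Ckm encodes the muscle form of creatine kinase, which sits partly at the M-band of the sarcomere (probe set 10550698, chromosome 7). It read 14.12, 14.13 and 14.07 in KO muscles, against 14.16, 14.12, 14.12 and 14.12 in WT muscles. The log2 difference was -0.02 ± 0.03 (SE), with a 95% interval from -0.09 to 0.05 and a limma adjusted p of 0.84. Its probe set was brighter than 99.97% of the genes on these arrays, a rank of signal and not of transcript abundance, and whether its signal was compressed at the top of the scale was not tested.

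Ckb encodes the brain-type cytosolic kinase, which many other cell types use (probe set 10402708, chromosome 12). It read 9.00, 9.09 and 9.13 in KO muscles, against 9.14, 9.09, 9.06 and 9.09 in WT muscles. The log2 difference was -0.02 ± 0.04 (SE), with a 95% interval from -0.12 to 0.07 and a limma adjusted p of 0.89, and the sign turned to 0.01 without KO replicate 1. Ckb had 5 different values on the 7 arrays, since KO replicate 2, WT replicate 2 and WT replicate 4 shared 1 value. Values shared by 2 or more arrays occurred for 59.4% of all genes in the deposited table.

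Ckmt2, the sarcomeric mitochondrial kinase that couples ATP export to phosphocreatine in striated muscle (probe set 10410984, chromosome 13), read 12.37, 12.33 and 12.12 in KO muscles. In WT muscles it read 12.78, 12.84, 12.67 and 12.78. The highest KO array stood 0.29 below the lowest WT array. Ckmt2 averaged 12.27 ± 0.14 in KO (SD, n = 3) and 12.77 ± 0.07 in WT (SD, n = 4). The log2 difference was -0.49 ± 0.07 (SE), with a 95% interval from -0.66 to -0.32, and it ranked 50 of 19938 genes by p with a limma adjusted p of 0.095.

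Ckmt1, the mitochondrial kinase of brain, gut and other non-muscle tissues (probe set 10475324, chromosome 2), had a dim probe set, with 31.3% of genes below it in signal. It read 6.96, 7.03 and 7.07 in KO muscles, against 7.03, 7.12, 7.02 and 6.95 in WT muscles. The log2 difference was -0.01 ± 0.05 (SE), with a 95% interval from -0.13 to 0.10 and a limma adjusted p of 0.96. Its sign turned to 0.02 without KO replicate 1 and also without WT replicate 2. The table has no detection call, so whether this signal exceeds background is not known.

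**Figure D2:**
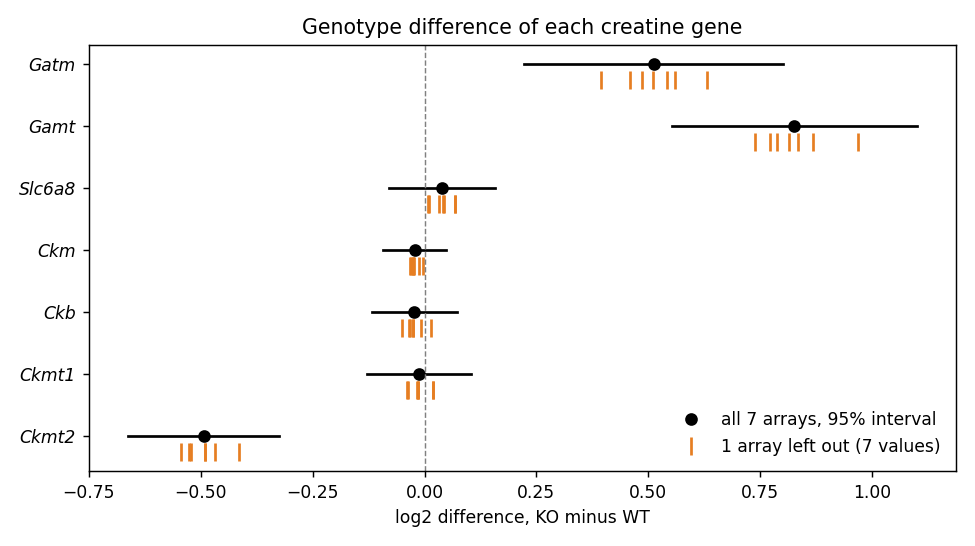
Log2 difference, KO minus WT, of each creatine gene (black point) with its 95% interval from limma over 7 arrays, and the 7 differences obtained when 1 array is left out (orange marks). Gamt, Gatm and Ckmt2 stay clear of 0 in every mark, with differences from 0.74 to 0.97, from 0.39 to 0.63 and from -0.54 to -0.42, while the marks of the other 4 genes lie within 0.07 of 0.

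The log2 ratio of the Ckmt2 to the Ckm probe set within an array was -1.75, -1.80 and -1.95 in KO, against -1.38, -1.28, -1.45 and -1.34 in WT, and its mean changed by -0.47. The ratio of the Ckb to the Ckm probe set averaged -5.03 ± 0.09 in KO (SD, n = 3) and -5.03 ± 0.02 in WT (SD, n = 4), and the groups overlapped. These ratios are given as values only, since compression of the bright Ckm signal was not tested and would carry into both. The log2 ratio of the Ckmt2 to the Ckb probe set, which does not use Ckm, was 3.37, 3.24 and 2.99 in KO, against 3.64, 3.75, 3.61 and 3.69 in WT, a change of -0.47 that was not tested.

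The 3 KO mice were graded alike in Gatm, Gamt and Ckmt2. KO replicate 3 lay farthest from the WT mean in each of the 3 genes and KO replicate 1 nearest. The weight limma gave to KO replicate 3 was 0.29, below the 0.77 to 1.99 of the other 6 arrays, and it had the highest array median, 7.76 against 7.72 to 7.74. Without KO replicate 3 the differences were 0.39 for Gatm, 0.74 for Gamt and -0.42 for Ckmt2. The genotypes themselves were taken from the labels. Prkaa1 and Prkaa2, which encode the targeted α1 and α2 subunits, differed by -0.51 ± 0.09 and -0.21 ± 0.07 (SE), with limma adjusted p of 0.12 and 0.39. The sources used here do not name the deleted exons, and probes outside them would not report the deletion.

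Genes listed around the substrates of creatine synthesis showed no common direction. The 14 measured genes make, use or carry S-adenosylmethionine, arginine, glycine or related compounds, so not all of them supply a substrate. Of these, 7 were above and 7 below WT, with a median difference of 0.01. At the adjusted threshold 0 passed (1 at an unadjusted p under 0.05). Mat2a, Ahcy and Ass1 were listed but had no probe set that carried their symbol alone. Shmt1, a cytosolic enzyme that interconverts serine and glycine, read 7.73, 7.76 and 7.70 in KO, against 7.88, 7.91, 7.78 and 7.78 in WT. It differed by -0.11 ± 0.04 and was the only one of the list without overlap. Mat2b, the regulatory subunit of the enzyme that makes S-adenosylmethionine, differed by -0.14 ± 0.07, and the groups overlapped.

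The carriers related to Slc6a8, listed together with the creatine exporter Slc16a12, showed no clear shift either. Among 7 measured genes, which move taurine, betaine, glycine, proline, GABA or creatine, differences ran from -0.09 to 0.10 with a median of 0.01, and 0 passed at an adjusted or an unadjusted p of 0.05 in limma. Slc6a12, a betaine and GABA carrier, differed by 0.10 ± 0.06, and Slc6a6, the taurine carrier, by -0.09 ± 0.08.

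Genes listed around mitochondrial ADP and ATP exchange, which included ATP synthase subunits, Slc25a3 and Ppif, were mostly below WT, by less than Ckmt2. Of 11 measured genes, 10 were lower and 9 did not overlap (5.33% of all genes did not overlap in that direction). At an unadjusted p under 0.05 there were 8 lower, and 0 passed the adjusted threshold. The ATP synthase subunits Atp5c1 and Atp5a1 differed by -0.24 ± 0.03 and -0.23 ± 0.04, with limma adjusted p of 0.083 and 0.11. Slc25a4, the adenine nucleotide carrier of muscle mitochondria, and Vdac1, a channel of the outer membrane, differed by -0.13 ± 0.03 and -0.11 ± 0.03, and both were named after their values were seen. The list had a median difference of -0.11, and its lowest member stood at -0.24, against -0.49 for Ckmt2. Within each array, Ckmt2 minus the mean of the list was 0.67, 0.63 and 0.41 in KO, against 0.98, 1.00, 0.84 and 0.98 in WT, a change of -0.38 that was not tested.

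On the side that uses phosphocreatine, a few M-band and ATP-consuming genes, among them genes of slow fibres, were higher and most differed little. Of 11 measured genes, at an unadjusted p under 0.05 there were 3 higher and 0 lower, 0 passed the adjusted threshold, and the 4 below WT lay between -0.03 and -0.01. The mean of the list ran from 12.14 to 12.36 in KO, against 11.96 to 12.05 in WT. The 2 with the smallest p were Atp2a2, the calcium pump of slow fibres, at 0.76 ± 0.15, and Myom3, an M-band protein, at 0.61 ± 0.15. KO and WT arrays did not overlap for these 2 genes, which held for 3.29% of all genes in that direction. Atp2a1, the calcium pump of fast fibres, differed by -0.01 ± 0.03, and Myom1, an M-band protein that binds CKM, by -0.02 ± 0.04, both named after their values were seen.

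**Figure D3:**
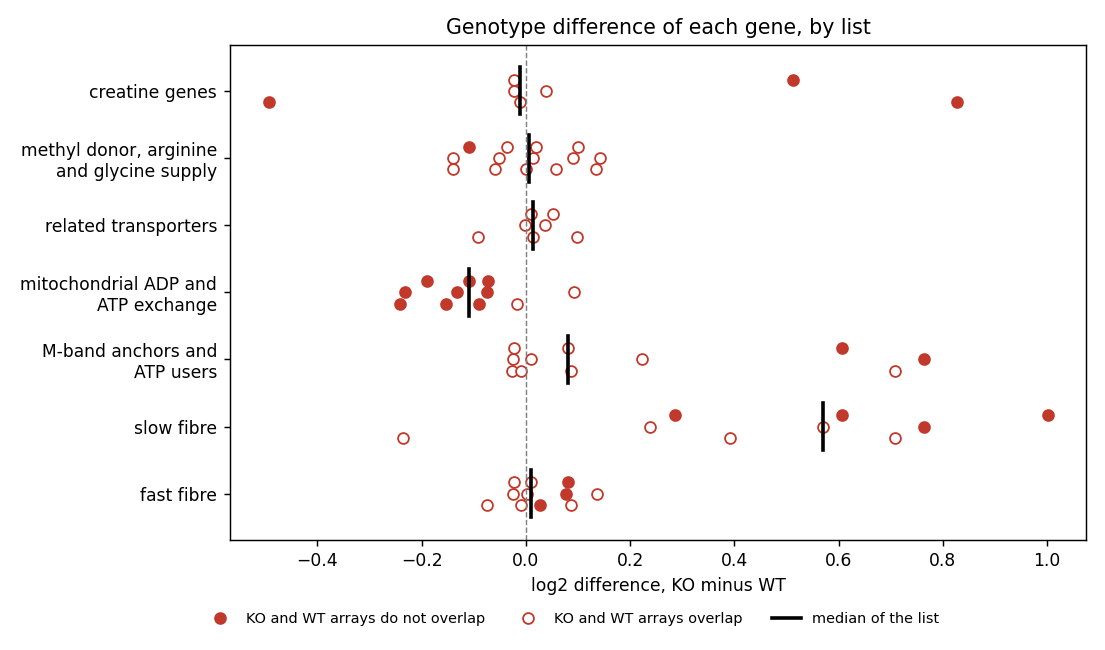
Log2 difference, KO minus WT, of each measured gene in 7 lists, with filled points where the KO and WT arrays do not overlap and a black bar at the median of each list. The creatine genes are spread on both sides, the ADP and ATP exchange genes lie mostly below 0 with a median of -0.11, and the slow fibre genes lie mostly above 0 with a median of 0.57.

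Fibre type and other cell types moved with these genes in the same arrays, and their part in the result was not tested. In whole muscle, fewer cells of a type and less RNA per cell cannot be told apart. The counts in these lists stand beside the following shares of all genes. At an unadjusted p under 0.05 in limma, 3.93% were higher and 6.69% lower in KO. Without overlap, 3.29% were higher and 5.33% lower. Slow fibre genes were higher for 8 of 9 (7 at an unadjusted p under 0.05, 4 without overlap and 0 adjusted), and the mean of the list ran from 8.72 to 9.31 in KO, against 8.46 to 8.65 in WT. Tnni1, the slow troponin I, had the smallest p, at 1.00 ± 0.17. The 1 gene below WT was Myl2, named after its values were seen, at -0.24 ± 0.28. Fast fibre genes had a median difference of 0.01 over 11, of which 1 had an unadjusted p under 0.05 and 0 passed the adjusted threshold, with Casq1, a calcium store protein, at 0.08 ± 0.03 and Mylpf, the fast regulatory light chain, at 0.14 ± 0.06.

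The 10 markers of muscle fibres, of which Mylpf had the smallest p, were bright, the dimmest of them above 99.68% of genes. The mean of the list ran from 13.71 to 13.72 in KO, against 13.67 to 13.74 in WT. All but Acta1 and Ryr1 are also in the fast fibre list, so the 2 lists are not separate results. Whether signals this bright were compressed was not tested. Macrophage markers were higher for 10 of 10, with 9 not overlapping, and the mean of the list ran from 8.80 to 8.93 in KO, against 8.10 to 8.36 in WT. Lyz2, the myeloid lysozyme, and Tyrobp, a myeloid adaptor, rose by 0.94 ± 0.05 and 0.63 ± 0.05 (limma adjusted p = 0.0088 and 0.017). Among the KO arrays the mean of the macrophage list was highest in replicate 2. Tyrobp, Mrc1, Cd163, Ctss and Fcer1g were also highest in replicate 2, and Itgam in replicate 1. Lyz2, Cd68, Adgre1 and Csf1r were highest in replicate 3, as Gatm and Gamt were. All of these markers except Lyz2 and Tyrobp were named after their values were seen.

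Endothelial markers were lower for 10 of 10 (7 at an unadjusted p under 0.05 and 0 adjusted), with a list mean from 9.23 to 9.35 in KO, against 9.53 to 9.71 in WT, and Cdh5, the cadherin of vessel walls, differed by -0.32 ± 0.06. Smooth muscle and pericyte markers were lower for 8 of 10, and their mean ran from 9.54 to 9.60 in KO, against 9.67 to 9.79 in WT, with the receptor Notch3, of smallest p, at -0.29 ± 0.05. Rgs5, a pericyte regulator of G protein signalling, differed by -0.41 ± 0.09, and the pericyte marker Pdgfrb by -0.01 ± 0.06. The 2 above WT were Cspg4 at 0.12 ± 0.07 and Des at 0.14 ± 0.04, and Des did not overlap. Rgs5, Pdgfrb, Cspg4 and Des were named after their values were seen. Satellite cell and regenerating fibre markers were higher for 9 of 10, and their mean ran from 8.95 to 9.00 in KO, against 8.73 to 8.81 in WT. Myh3, the embryonic myosin, rose by 0.66 ± 0.05 (limma adjusted p = 0.022). Myh3, Myh8, Vcam1 and Des were the 4 above WT without overlap, and Des is shared with the pericyte list. The satellite cell markers Pax7 and Myf5 differed by only 0.04 ± 0.08 and 0.05 ± 0.04, and both overlapped. Cdh15 went the other way without overlap, at -0.09 ± 0.03. In this list Myh8, Vcam1, Pax7, Myf5 and Cdh15 were also named after their values were seen. The list means of the other types overlapped between genotypes.

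Fibroblast and progenitor markers were above WT for 7 of 9, 3 of them and 0 lower ones with an unadjusted p under 0.05, and the mean of the list was 10.45, 10.66 and 10.82 in KO replicates 1 to 3, against 10.24 to 10.61 in WT. Dpt, a matrix protein, had the smallest p in that list, at 0.42 ± 0.08. The 2 below WT were the collagen genes Col1a1 at -0.28 ± 0.26 and Col1a2 at -0.20 ± 0.21. Both overlapped, and both were named after their values were seen. Adipocyte markers were below WT for 7 of 9, with 3 lower and 1 higher at an unadjusted p under 0.05, and their mean ran from 8.82 to 8.96 in KO, against 8.88 to 9.12 in WT. The gene of smallest p, Car3, which slow fibres also make, went the other way from most of the list at 0.51 ± 0.14, while Fabp4 and Adipoq, named after their values were seen, differed by -0.34 ± 0.10 and -0.34 ± 0.12. Schwann cell and nerve markers were above WT for 4 and below for 3 of 7, with Ncmap at -0.18 ± 0.06 and Scn7a, named after its values were seen, at 0.32 ± 0.11. Only 2 of 6 red cell genes were measured, Slc4a1 at 0.10 ± 0.16 and Alas2, named after its values were seen, at -0.29 ± 0.45.

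**Figure D4:**
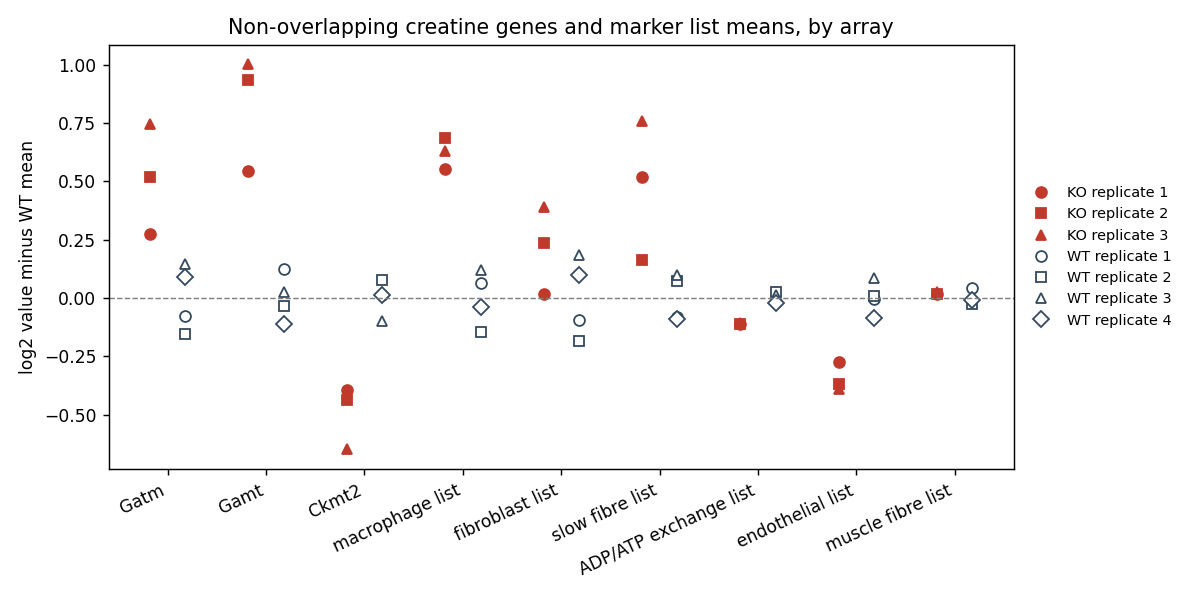
Log2 value of each array minus the WT mean, for the 3 creatine genes without overlap and for the means of 6 gene lists, with filled red points for KO and open points for WT. Among the KO arrays, replicate 3 is farthest from the WT mean in Gatm, Gamt, Ckmt2 and the fibroblast, slow fibre, endothelial and muscle fibre lists. KO replicate 2 is farthest in the macrophage and ADP/ATP exchange lists, and it is the nearest in the slow fibre list.

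The genes whose pattern over the 7 arrays was most like each member were read from 1 search, as a description in which genotype, array and shared values all contribute. Closest to Gamt were H2-Ab1 and H2-Aa, chains of class II antigen-presenting molecules, with Pearson's r of 0.994 and 0.992 over 7 arrays. H2-Ab1 read 9.47, 9.71 and 9.90 in KO, against 8.98, 8.79, 8.88 and 8.69 in WT. Closest to Gatm were Tnfrsf23, a decoy receptor, and Stau1, an RNA-binding protein, with r of 0.993 and 0.985 over 7 arrays. Closest to Ckmt2 were Atp5g1, a subunit c gene of ATP synthase, and Cebpg, a transcription factor, with r of 0.991 and 0.989 over 7 arrays. Atp5g1 read 13.60, 13.58 and 13.54 in KO, against 13.75, 13.75, 13.71 and 13.75 in WT. For the 4 genes with small differences the nearest were Hdac6 and Rpa1 for Slc6a8, Polr2b and Diaph2 for Ckm, Cltc and Snora74a for Ckb, and Cenpm and Hes7 for Ckmt1, with r from 0.955 to 0.998 over 7 arrays.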

How the data were processed

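TRIzol-extracted total RNA, 100 ng from each mouse, was biotin-labelled (Ambion WT Expression Kit), per the labels. The authors deposited 1 value table of 28856 probe sets on 7 arrays, read here as log2 values because they reach 14.65, above the 11.09 that the natural log of a 16-bit signal allows. The sources used here do not give background correction, scaling or summarization, and a scaling between arrays would hide a shift common to all transcripts. Array medians over probe sets with 1 symbol lay between 7.72 and 7.76, 0 pairs of arrays were identical, and 0 columns were left unused. The number of arrays limits the precision.

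Probe sets were named through GEO's platform annotation: 21789 had 1 symbol and were tested, 1621 had several and 5446 none. They stand for 19938 genes, each counted through its brightest probe set. All 7 members matched RefSeq (GRCm38.p6) under the same symbol, and 6 of them had a promoter window there, Slc6a8 having none in the table used.

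KO minus WT was fitted on all 7 arrays without a covariate in limma 3.58.1 (lmFit, eBayes, R 4.3.3), p adjusted (Benjamini-Hochberg) over the 21789 probe sets, and a threshold of 0.05. The fit was tested on simulated data. Values after ± are moderated standard errors unless marked SD. The named-gene rule took the 7 members, the 2 genes of smallest p in each pathway and fibre list, 1 in each cell type list and all with an adjusted p under 0.05, and for each member the 2 genes of highest Pearson's r over the 7 arrays among genes of at least median signal, predicted genes aside. Members and lists were chosen with earlier results of these data known. Alternatives were a replicate block, quantile normalization, median centring, array weights, a trended robust prior, a filter on dim probe sets, all probe sets, averaged probe sets per gene, and omission of each array in turn.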

Additional observations from a re-analysis of the deposited data

Results flagged for a closer look

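Ckm in WT replicate 1 stood apart from the other 3 WT arrays. It read 14.16 there, against 14.12 in each of WT replicates 2, 3 and 4, and the gap was 0.853 of the range of the 4 WT values, above the 95% critical value of Dixon's test for 4 samples. Chance alone marks about 1 group in 20 in this way, 7 genes were examined, and the gap is small on the log2 scale. Without that array the Ckm difference was -0.01.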

How the results depend on the processing

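The 3 genes without overlap, Gatm, Gamt and Ckmt2, had an unadjusted p under 0.05 under each of the 15 alternatives. Overlap could arise only under quantile normalization or median centring, and it did not arise there. The other alternatives left the values unchanged or only took an array away, so they could not create overlap. When 1 array was left out, the difference ran from 0.39 to 0.63 for Gatm, from 0.74 to 0.97 for Gamt, from -0.54 to -0.42 for Ckmt2, from 0.01 to 0.07 for Slc6a8, from -0.03 to -0.0033 for Ckm, from -0.0505 to 0.0135 for Ckb and from -0.0398 to 0.0193 for Ckmt1. Ckb turned sign without KO replicate 1, and Ckmt1 without KO replicate 1 or WT replicate 2. The members called ran from 0 to 1, the 1 being Gamt without KO replicate 1 (adjusted p = 0.044, and from 0.059 to 0.39 for Gamt and Ckmt2 together in the other alternatives).

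The count of genes called, 5 in all, ran from 0 (without WT replicate 1, 3 or 4) over 1 without WT replicate 2 and 2 without KO replicate 2 to 14 without KO replicate 1. With the replicate block it was 0 and the members called were 0, with differences of 0.54 for Gatm, 0.79 for Gamt and -0.49 for Ckmt2. Same-numbered KO and WT arrays correlated at 0.29, 0.16 and -0.20 in their deviations from the group means, and the numbers were not taken to pair the mice. The cause of the changed counts was not tested.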
